A study of Homo sapiens with 2 samples.

Results

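The regions described here are the clusters of RBM47-bound RNA that the authors labelled as lying within 10 kb upstream of a gene and with no other location label. They were taken by that label alone, without use of their tag counts, and number 1669 of the 233546 clusters in the deposited table, or 0.715% (Wilson 95% interval 0.681 to 0.750). The table gives none of the 1669 a gene ID or symbol, so each was related to the nearest cluster on the same strand that carries a gene symbol, called a gene cluster below. The data come from HITS-CLIP, which crosslinks a protein to its bound RNA with ultraviolet light, recovers the complexes with an antibody and sequences the RNA fragments as tags. There was a single group of 2 replicates, the libraries of MDA231-BrM2a cells that expressed Flag-tagged wild-type RBM47 after 1 ng/ml doxycycline for 3 days. MDA231-BrM2a cells are a brain metastatic population derived from the breast cancer line MDA-MB-231. They are not a clone, and the Flag-RBM47 was introduced and inducible. No control pull-down was analysed here, so the background level was not measured.

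RBM47 is an RNA-binding protein that acts on the splicing and stability of transcripts. RNA 5' of an annotated gene can belong to an unannotated first exon or intron of that gene, to the primary transcript from which a microRNA is cut, to a neighbouring gene read past its end, or to a separate noncoding RNA. A microRNA (miRNA) is a short RNA that pairs with target transcripts through its seed, bases 2 to 8 from its 5' end. Primary miRNA transcripts can run far beyond the annotated hairpin, so RNA 5' of a miRNA gene can carry the label used here.

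Of the 10 upstream clusters with the most tags, 2 lay 5' of the miRNA gene MIR424 and 6 in a group on chromosome 6 with miRNA genes in the same stretch by gene order. The mature miRNAs that RefSeq lists for the miRNA genes of these loci are printed below. MIR424 is the gene ahead of a group of upstream clusters on chromosome X and MIR503 is the next gene cluster on that strand. MIR30A and MIR30C2 are genes that RefSeq places, by order on GRCh38.p14, on the minus strand between the bound genes on either side of the largest group on chromosome 6. The sequences are those of RefSeq, 5' to 3', with the seed in capitals.
hsa-miR-424-5p: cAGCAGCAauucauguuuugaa
hsa-miR-424-3p: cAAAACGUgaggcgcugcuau
hsa-miR-503-5p: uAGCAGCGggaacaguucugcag
hsa-miR-503-3p: gGGGUAUUguuuccgcugccagg
hsa-miR-30a-5p: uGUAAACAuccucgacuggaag
hsa-miR-30a-3p: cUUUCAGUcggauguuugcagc
hsa-miR-30c-5p: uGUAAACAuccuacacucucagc
hsa-miR-30c-2-3p: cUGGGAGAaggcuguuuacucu
The seeds of miR-30a-5p and miR-30c-5p were identical. Those of miR-424-5p and miR-503-5p shared 6 of 7 bases. Sequences of the clusters themselves are not printed, since the submitters' processing notes name the genome build hg18 and no genome of that build was used here.

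The upstream clusters were small. They held 5019 tags of replicate 1 and 17262 of replicate 2, which was 0.498% ± 0.00546 (SD, n = 2) of each replicate's tags. The median was 8 tags by the deposited total, with quartiles of 6 and 13, and the largest held 694. Their median length was 82 nt, with quartiles of 61 and 112 nt, and was 142 nt for clusters with at least 5 tags in replicate 1 alone. The table as a whole held 999047 tags of replicate 1 and 3489697 of replicate 2, and each listed cluster had at least 5 tags in total and at least 1 in each replicate. Of the upstream clusters, 61.4% had no more than 2 replicate 1 tags, so single clusters were measured with less precision in that library.

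Mean log2 tags per cluster were compared with other classes within each replicate. Upstream clusters were below those labelled only as within 10 kb downstream of a gene, by a log2 difference of -0.11 in replicate 1 and -0.13 in replicate 2, a mean of -0.12 ± 0.015 (SD, n = 2). They were above clusters in introns alone in both replicates, with a mean log2 difference of 0.21 ± 0.057 (SD, n = 2). Against 14654 downstream clusters the difference was larger than the spread between replicates, and so it was against 99388 intron clusters. Against deep intergenic clusters the mean log2 difference was 0.02 ± 0.037 (SD, n = 2) and its sign differed between the replicates. With 2 replicates the exact two-sided sign-flip test cannot give a p below 0.5, so none of these differences could pass a threshold. In replicate 1 alone, with at least 5 of its tags required in each cluster, the difference to downstream clusters was -0.049.

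Upstream clusters with 100 or more tags numbered 12, or 0.719%, against 1.35% of downstream clusters and 1.14% of deep intergenic ones, but 0.307% of intron ones. The 10 largest upstream clusters held 8.40% ± 2.64 (SD, n = 2) of the upstream tags in each replicate. That share rose to 17.6% when clusters closer than 50 nt were merged, was 16.04% in replicate 1 alone, and reached 26.7% once 30 tags were required. The minus strand carried 993 of the 1669 upstream clusters, or 59.5%, against 50.6% of the downstream and 41.3% of the deep intergenic clusters. Clusters crowd in a limited number of stretches, so these shares rest on fewer loci than clusters. Chromosome 1 had the most, with 254, followed by chromosome 4 with 171 and chromosome 10 with 140. These were 1.02%, 1.12% and 1.32% of the clusters of each chromosome. By that share the mitochondrial chromosome M (31.7%) and chromosome X (1.47%) were highest.

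A gene cluster lay within 10 kb on the same strand of 866 upstream clusters, or 51.9% (Wilson 95% interval 49.5 to 54.3). In 863 of the 866 it lay ahead, that is 3' of the upstream cluster in the direction of transcription. This side follows from the label. The 3 exceptions had a gene cluster just under 10 kb behind them, which places them near the edge of the downstream label. Downstream clusters were the mirror image, with 13314 of 14654 (90.9%) having a gene cluster within 10 kb behind and 0 having one ahead, and a deep intergenic cluster had a gene cluster within 10 kb in 32 of 40168 cases. The share of clusters with a bound gene in reach was therefore lower for the upstream label than for the downstream label, 51.9% against 90.9%, and the Wilson intervals did not overlap. These intervals cover counting error and treat clusters as independent, which clusters of a shared stretch are not. With each stretch of clusters counted once, 39.6% of 275 stretches had a linked upstream cluster. The share fell to 34.0% in replicate 1 alone and to 26.3% once 30 tags were required. Both settings removed gene clusters as well as upstream clusters, and a loss of gene clusters can only lower the share. With 10 tags required of gene clusters alone, the share was 35.4%.

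**Figure D1:**
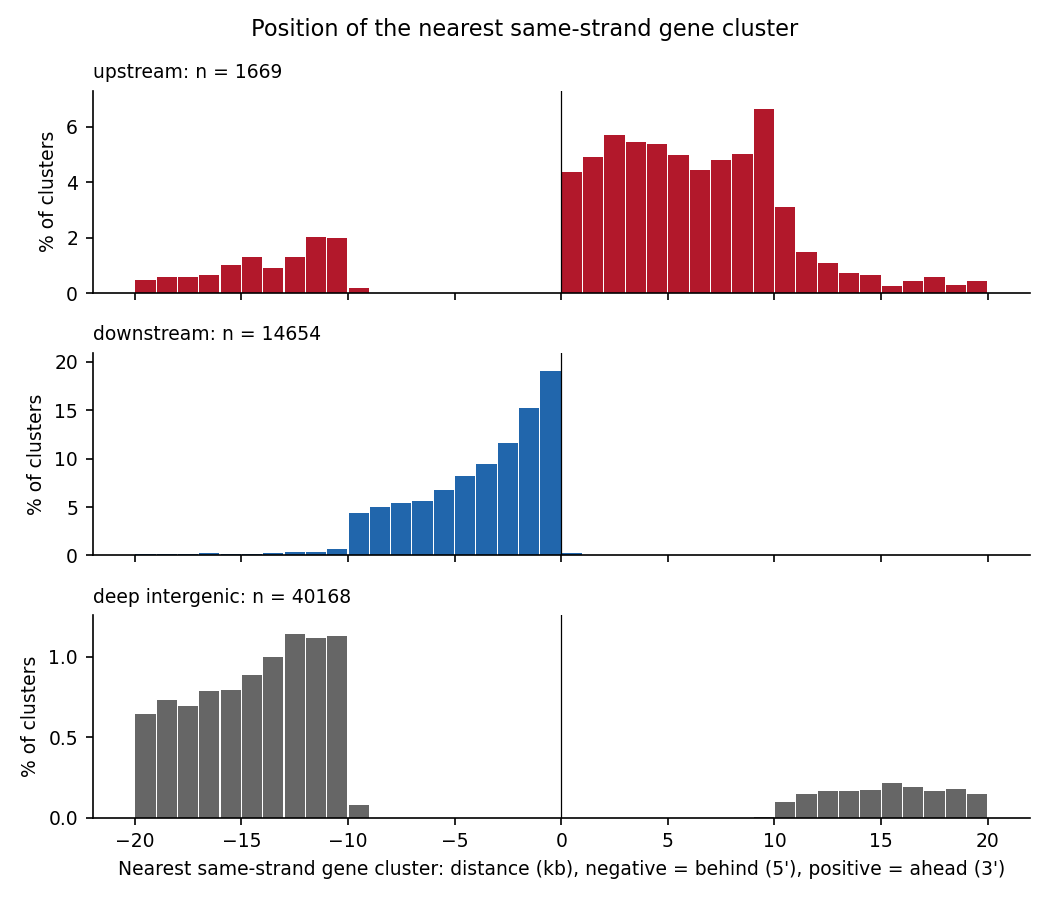
Share of clusters (y axis, % of each class) by distance in kb to the nearest same-strand gene cluster (x axis, 1-kb bins within 20 kb), with gene clusters behind at negative and ahead at positive distances. The 1669 upstream clusters spread over the range from 0 to 10 kb ahead, whereas the 14654 downstream clusters are densest next to the gene cluster behind them and the 40168 deep intergenic clusters start at about 10 kb on either side.

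The distance had no peak near the gene cluster ahead. That cluster can lie inside the gene, so distances to the 5' end of the gene were not measured. Of the 863 linked clusters, 155 lay 0 to 2 kb from the gene cluster ahead, 186 lay at 2 to 4 kb, 173 at 4 to 6 kb, 154 at 6 to 8 kb and 195 at 8 to 10 kb. Their median tags in these 5 bins were 8, 9, 10, 9 and 8. The median distance of linked clusters was 5027 nt. Over all upstream clusters with a gene cluster on their strand, the median distance to the nearest was 9634 nt, with quartiles of 4784 and 24778 nt. It was 3402 nt for downstream clusters and 251523 nt for deep intergenic clusters. The median for upstream clusters moved to 15995 nt once 30 tags were required of upstream and gene clusters alike. It was 13739 nt with 10 tags required of gene clusters alone.

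The gene cluster ahead lay in an intron for 326 of the 863 linked clusters (37.8%) and in a 5'UTR for 277 (32.1%). Introns alone made up 56.2% of all gene clusters in the table and 5'UTRs alone 0.623%. A gene is met from its 5' end here, so a larger 5'UTR share follows in part from the label. Neighbouring upstream clusters can share 1 gene cluster ahead, so these counts are not counts of genes. The nearest cluster of any label was another upstream cluster for 1518 of the 1669, or 91.0%, at a median distance of 72 nt over all of them.

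The linked clusters belonged to 105 genes, 1.36% of the 7698 genes with a cluster. Of these, 41 had 1 upstream cluster, 64 had 2 or more and 24 had 10 or more. The 10 genes with the most upstream tags took 414 of the 863 linked clusters and 63.1% ± 1.68 (SD, n = 2) of their tags in each replicate. Through the gene ID, 103 of the 105 matched RefSeq, with 83 protein-coding genes and 13 long noncoding RNA genes, and 102 lay on the same chromosome as in RefSeq. The exception was MIR548U, with 29 upstream clusters on chromosome 15, where RefSeq on GRCh38.p14 has this gene on chromosome 6, so its name is uncertain here. Spearman's rho of upstream tags and the gene's own tags across the 105 genes was 0.10, given as a description over genes that share 2 libraries.

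Among protein-coding genes, MYPN, which encodes the sarcomere protein myopalladin, had the most upstream tags. Its 56 upstream clusters (chromosome 10, plus strand, 69525755 to 69535805) held 253 tags in replicate 1 and 843 in replicate 2. Both libraries gave nearly the same level, 247.4 ± 8.25 (SD, n = 2) normalised tags, that is tags per 1000000 tags of the replicate in the table, above the 153.7 ± 7.78 (SD, n = 2) in the gene's own 60 clusters. MUC15, a membrane mucin gene, had 51 upstream clusters (chromosome 11, minus strand) with 186 tags in replicate 1 and 706 in replicate 2. Its upstream level was 194.2 ± 11.4 (SD, n = 2) normalised tags, against 109.6 ± 0.661 (SD, n = 2) in the gene. In both genes the upstream clusters reached from under 60 nt to nearly 10 kb from the first gene cluster. Their summed tags exceeded those of the gene's own clusters in each replicate.

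DNAJB4, which encodes a heat shock co-chaperone of the Hsp40 family, had 41 upstream clusters on chromosome 1 with 125 and 447 tags in replicates 1 and 2. This was 1.21 times the gene's own tags in replicate 1 and 1.22 times in replicate 2. GEN1, which encodes a nuclease that resolves DNA recombination junctions, had 35 upstream clusters on chromosome 2 with 161 and 659 tags. For GEN1 the replicates disagreed on which part held more, with upstream tags at 0.767 times the gene's own in replicate 1 and 1.08 times in replicate 2. CLDND1, a gene for a claudin domain protein, had 40 upstream clusters on chromosome 3 with 196 and 545 tags. These stood below the gene's own tags in both replicates, at 0.377 and 0.297 times.

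**Figure D2:**
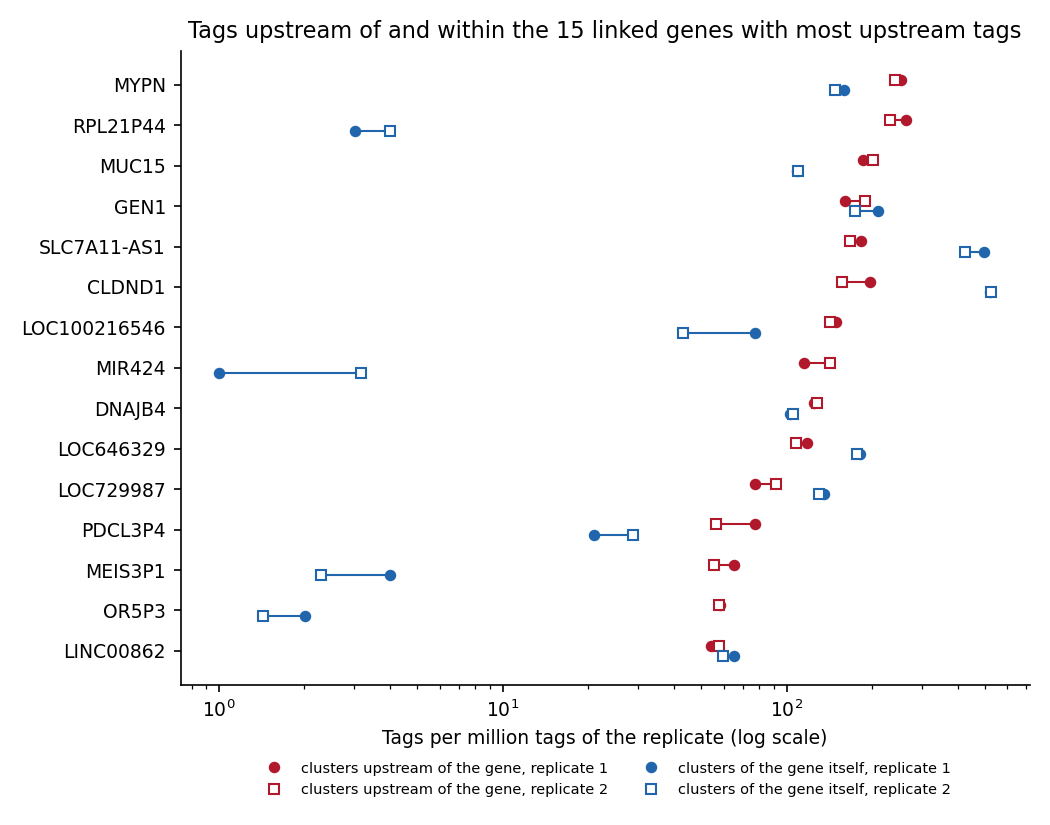
Normalised tags, per 1000000 tags of each replicate (x axis, log scale) in the upstream clusters (red) and in the clusters of the gene itself (blue), for the 15 linked genes with the most upstream tags, with circles for replicate 1, squares for replicate 2 and a line between them. Upstream levels run from about 54 to 263 normalised tags and the replicates lie close together, while the level in the gene itself runs from about 1 for MIR424 to over 500 for CLDND1.

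Some linked genes had almost no tags of their own. RPL21P44, a processed copy of a ribosomal protein gene, had 48 upstream clusters with 263 tags in replicate 1 and 809 in replicate 2, and 3 and 14 tags in the gene itself. Its upstream level of 247.5 ± 22.2 (SD, n = 2) normalised tags differed from that of MYPN by less than the spread between replicates. OR5P3, an olfactory receptor gene, had 27 upstream clusters on chromosome 11 with 58 and 202 tags, and 2 and 5 tags in the gene. MEIS3P1, a pseudogene of a homeobox gene, had 7 upstream clusters with 65 and 194 tags, and 4 and 8 in the gene. The MEIS3P1 clusters sat together on chromosome 17 at 4481 to 5393 nt from the gene cluster, with none nearer. PDCL3P4, another pseudogene, had more tags of its own than these genes, 21 and 100, beside 77 and 196 in its 22 upstream clusters.

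Upstream tags exceeded the gene's own tags in both replicates in 17 of the 105 genes, and by the deposited total in 21. These are sums of tags, not adjusted for the number or length of clusters, so they do not compare density. Besides MYPN, RPL21P44, MUC15, DNAJB4, OR5P3, MEIS3P1 and PDCL3P4, the 17 held MIR424, MIR548U, OR5P2, DCAF4L1, RPL13AP20, the bitter taste receptor genes TAS2R3 and TAS2R4, LOC100216546, LOC100289673 and LOC728875. TAS2R3 had 15 and 50 upstream tags in 10 clusters and 4 and 22 in the gene. Of the 17, MIR424, OR5P3, MEIS3P1, TAS2R4 and RPL13AP20 each had 1 cluster of their own. Reads of a processed copy such as RPL21P44 can be shared with the parent gene, so the level in the copy itself is uncertain.

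Among long noncoding RNA genes, SLC7A11-AS1 had 47 upstream clusters (chromosome 4, plus strand) with 183 tags in replicate 1 and 584 in replicate 2. They stood at 0.369 and 0.393 times the tags of the gene itself. On the opposite strand SLC7A11, which encodes the cystine transporter xCT, had 13 upstream clusters with 30 and 78 tags, against 4158 and 15548 in the gene. LOC100216546, now LINC01004, had 40 upstream clusters with 149 and 497 tags, above its own 77 and 150. LOC729987, now LINC01776, had 34 upstream clusters with 77 and 321 tags, and LINC00862 had 22 with 54 and 201, both below the gene's own tags in each replicate. LOC646329, which did not match RefSeq, had 41 upstream clusters with 118 and 376 tags, against 181 and 618 of its own.

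The place of the tags within the 10 kb differed between genes. In C6orf62, a protein-coding gene of unknown role, all 5 upstream clusters lay between 69 and 928 nt from the gene cluster, with 41 tags in replicate 1 and 125 in replicate 2, and the largest, with 81 tags, was the nearest. The TFAM clusters, upstream of the gene for the mitochondrial transcription factor A, numbered 14 and lay at 1719 to 5052 nt with 33 and 93 tags.

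**Figure D3:**
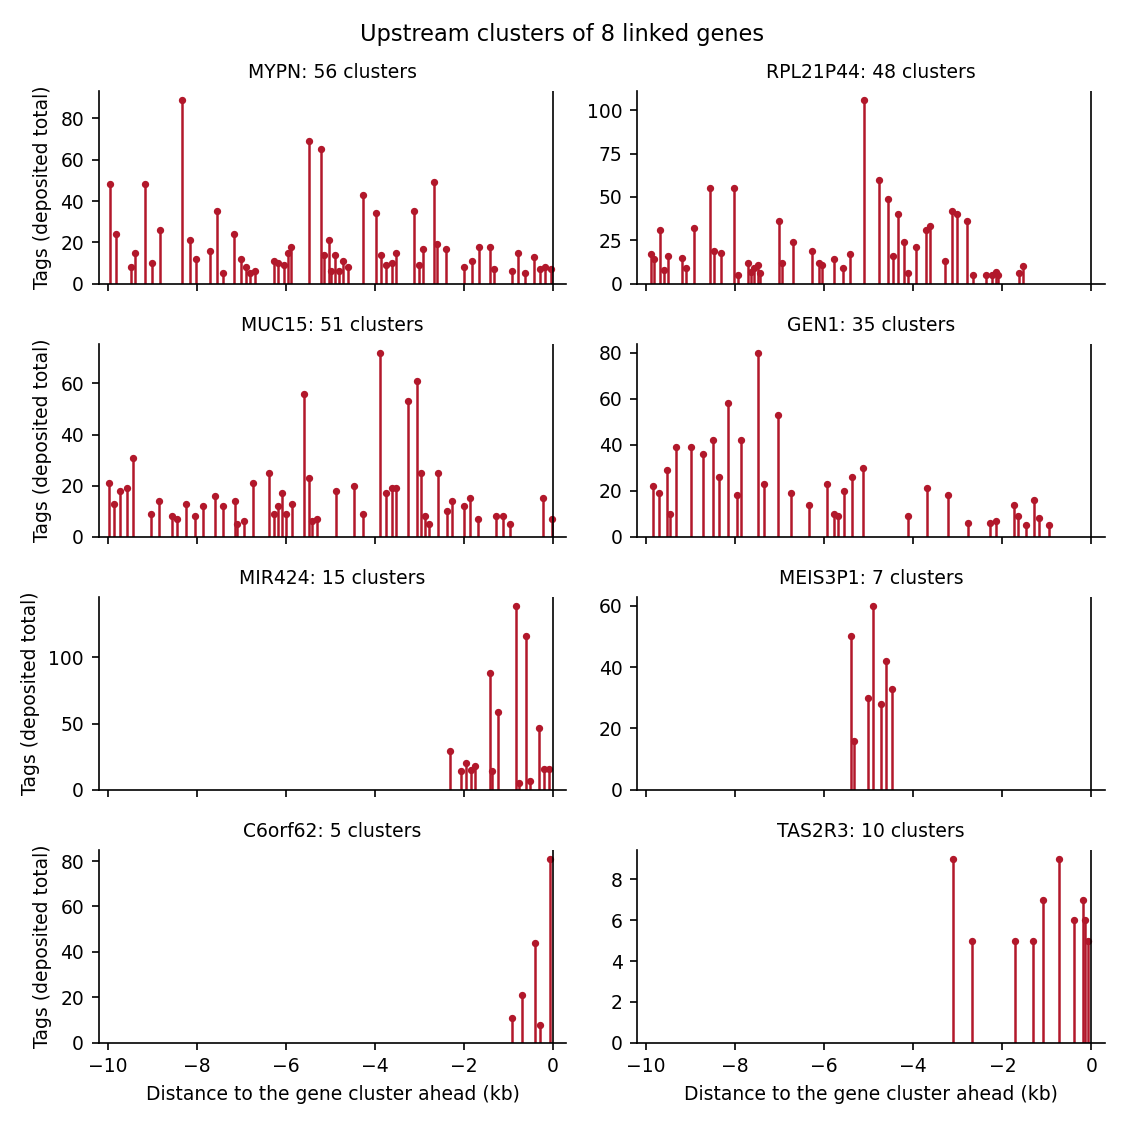
Tags by the deposited total (y axis) of each upstream cluster against its distance in kb from the gene cluster ahead (x axis, gene cluster at 0), for 8 linked genes. MYPN and MUC15 fill the 10 kb window, RPL21P44 fills it except for the 1531 nt next to the gene cluster, GEN1 is highest 7 to 9 kb out, and the clusters of MIR424, MEIS3P1, C6orf62 and TAS2R3 occupy a short part of it.

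At MIR424, 15 upstream clusters lay between 85 and 2321 nt 5' of the gene's only cluster, from 133508570 to 133510982 on chromosome X, minus strand. They held 115 tags in replicate 1 and 495 in replicate 2, or 128.5 ± 18.9 (SD, n = 2) normalised tags. The largest, 133509315 to 133509726, had 23 and 118 tags, and the next, 133509081 to 133509243, had 17 and 99. MIR424 itself, the gene of miR-424-5p printed above, had a single cluster with 1 and 11 tags. MIR503, whose miR-503-5p has the related seed, had a single cluster of 27 nt just beyond it with 4 and 120 tags. In sums of tags, the clusters of these miRNA genes thus held fewer than the 15 upstream clusters in both replicates. These sums were not adjusted for length, so they do not compare density. By the deposited total, the MIR503 cluster held 123 tags in 27 nt and the largest upstream cluster 139 in 411 nt. The replicate 1 share of the MIR503 cluster was 3.23%, so its level rests mostly on replicate 2. The MIR424 cluster carries the intron label, and whether its tags belong to a longer transcript was not tested. miR-424 and miR-503 are known to act on cell cycle genes.

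The group with the most tags was not linked to a bound gene. Between 72143873 and 72170772 on chromosome 6, minus strand, 46 upstream clusters held 488 tags of replicate 1 and 1584 of replicate 2, or 471.2 ± 24.4 (SD, n = 2) normalised tags. Of the 10 largest upstream clusters, 6 were in this group. The largest, 72151850 to 72152347, had 43 tags in replicate 1 and 131 in replicate 2. The others had 30 and 113, 32 and 108, 33 and 105, 42 and 87, and 30 and 93. The nearest gene cluster behind was that of the noncoding RNA gene LINC00472, at least 10091 nt away, and the nearest ahead was that of LMBRD1, at least 1586869 nt away. Without this group the upstream share of tags was 0.452%.

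These 46 clusters were part of an unbroken run of 235 minus-strand clusters over 52.8 kb, counting clusters of any label up to 5 kb apart. In the direction of transcription it began with 20 gene clusters of LINC00472, which reached to 5.19 kb. Clusters with the downstream label or both labels followed to 15.2 kb, and 5 upstream clusters stood at 15.4 to 15.9 kb. Then 51 downstream clusters ran from 16.2 to 26.1 kb and 34 deep intergenic ones from 26.2 to 32.2 kb. The other 41 upstream clusters lay at 32.3 to 42.2 kb, and 32 downstream clusters followed from 42.8 kb to the end. The change from upstream to downstream label at about 16 kb and again between 42.2 and 42.8 kb marks, by the meaning of the labels, an annotated gene at each of these points, and the table lists no gene cluster there. In RefSeq on GRCh38.p14, the first minus-strand genes after LINC00472 in this direction are MIR30A and then MIR30C2, whose 5p products share the seed printed above. Which genes the authors' annotation held there is not stated in the sources used here.

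**Figure D4:**
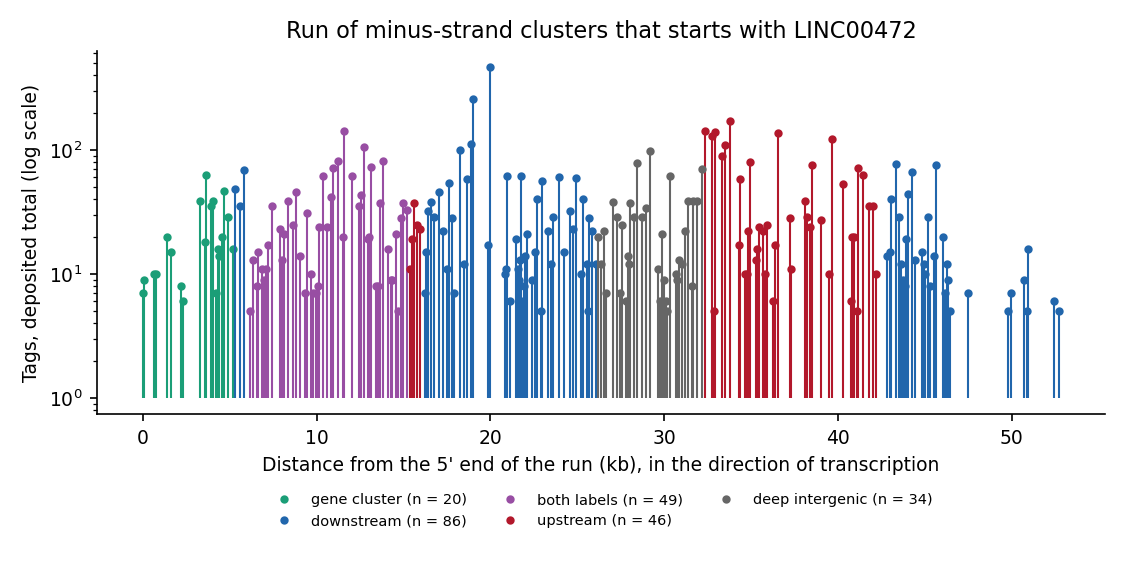
Tags by the deposited total (y axis, log scale) of the 235 minus-strand clusters of the chromosome 6 run against distance in kb from its 5' end (x axis), coloured by location label. The 46 upstream clusters stand as 5 clusters near 15.5 kb and 41 clusters from 32.3 to 42.2 kb, each followed by clusters with the downstream label.

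In all, 806 upstream clusters were not linked to a gene cluster ahead within 10 kb. Of these, 3 had the gene cluster behind within 10 kb. The nearest gene cluster was 10 to 50 kb away for 465, beyond 50 kb for 312, of which 97 were beyond 1000000 nt, and none on the strand for 26. Their median was 7 tags, against 9 for linked clusters. Other large groups of this kind were 36 plus-strand clusters of chromosome 14 with 78 and 269 tags in replicates 1 and 2, 27 minus-strand clusters of chromosome 3 with 76 and 248, and 32 minus-strand clusters of chromosome X with 59 and 187. The chromosome X group lay between the gene clusters of CASK, at least 4022824 nt ahead, and SLC9A7, at least 842721 nt behind. RefSeq lists 10 genes on that strand in this interval, 3 of them named for miRNAs, MIR221, MIR222 and the host gene MIR222HG. Between the gene clusters that flank the chromosome 14 group it lists 18 genes, 1 of them named for a miRNA. For the chromosome 3 group it lists 3 genes, 0 of them named for miRNAs. How near these genes lie to the upstream clusters was not determined.

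Upstream clusters were gathered in stretches. With gaps under 1 kb, and whatever their distance to a gene cluster, they formed 418 groups, of which 240 were a lone cluster and 37 held 10 or more. Those 37 took 930 clusters, or 55.7%. The longest by number were those of MYPN with 56 clusters over 10050 nt, RPL21P44 with 52 over 9104 nt, MUC15 with 51 over 10063 nt, SLC7A11-AS1 with 47 over 8222 nt and CLDND1 with 45 over 9509 nt. Each of the 5 was about as long as the window that the label allows.

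Joined with clusters of any label at gaps up to 5 kb, the 1669 clusters fell in 275 runs. Of the upstream clusters, 33.2% had gene clusters of their run ahead only, 16.4% on both sides, 14.0% behind only, and 36.4% were in a run with no gene cluster. Runs that also held deep intergenic clusters contained 1078 of the upstream clusters, or 64.6%. The share in runs with a gene cluster was 63.6%, and changed to 50.8% with a gap of 2 kb and 73.7% with 10 kb, alternatives chosen after the data were seen. The run that led into GEN1 had 439 clusters over 90.9 kb, 372 of them deep intergenic, and its upstream clusters held 6.92% of the run's tags. The MYPN run had 103 clusters over 27.7 kb, and there the upstream clusters held 66.1% of the tags. The RPL21P44 clusters lay in a run that began in CHIC2, a gene on the same strand behind them.

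The 2 replicates were compared cluster by cluster. Spearman's rho of their tags over the 1669 upstream clusters was 0.35, against 0.46 for downstream 0.36 for deep intergenic and 0.22 for intron clusters, as a description of clusters from the same 2 libraries. It was 0.41 in the 657 upstream clusters with at least 10 tags, and 0.49 in the 114 with at least 30. Summed by linked gene it was 0.87 over 105 genes. In the 22 linked genes with at least 100 upstream tags, the level in replicate 2 was 0.729 to 1.23 times that in replicate 1.

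Each cluster's split of tags was tested against the overall replicate 1 share of 22.3% by an exact binomial test (two-sided), with p-values adjusted by Benjamini-Hochberg over all 233546 clusters. Of the upstream clusters, 3 passed at 0.05, or 0.180%, where 0.0111% of all clusters passed in either direction. At an unadjusted p under 0.05 they numbered 59, or 3.54%, against 3.04% of all clusters, and 45 of the 59 were higher in replicate 1. The 3 that passed the adjustment were all higher in replicate 2, the direction in which 0.00985% of all clusters passed. The same count of 3 passed under a beta-binomial test, where 0.00471% of all clusters did. The test compares these libraries and not conditions.

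A pair of the 3 stood side by side on chromosome 17, minus strand. The first, 30502235 to 30502390, was the largest upstream cluster, with 66 tags in replicate 1 and 628 in replicate 2, a replicate 1 share of 9.51% (Wilson 95% interval 7.54 to 11.9, exact binomial adjusted p 6.4e-14). The second, 30502391 to 30502473, had 12 and 290 tags, a share of 3.97% (2.29 to 6.82, exact binomial adjusted p 2.4e-14). No gene cluster was near, with that of RFFL at least 63553 nt ahead and that of SLFN12 at least 259714 nt behind. The third lay on the minus strand of the mitochondrial genome (chromosome M) at 13875 to 14211, with 3 and 92 tags, a share of 3.16% (1.08 to 8.88, exact binomial adjusted p 0.00377).

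**Figure D5:**
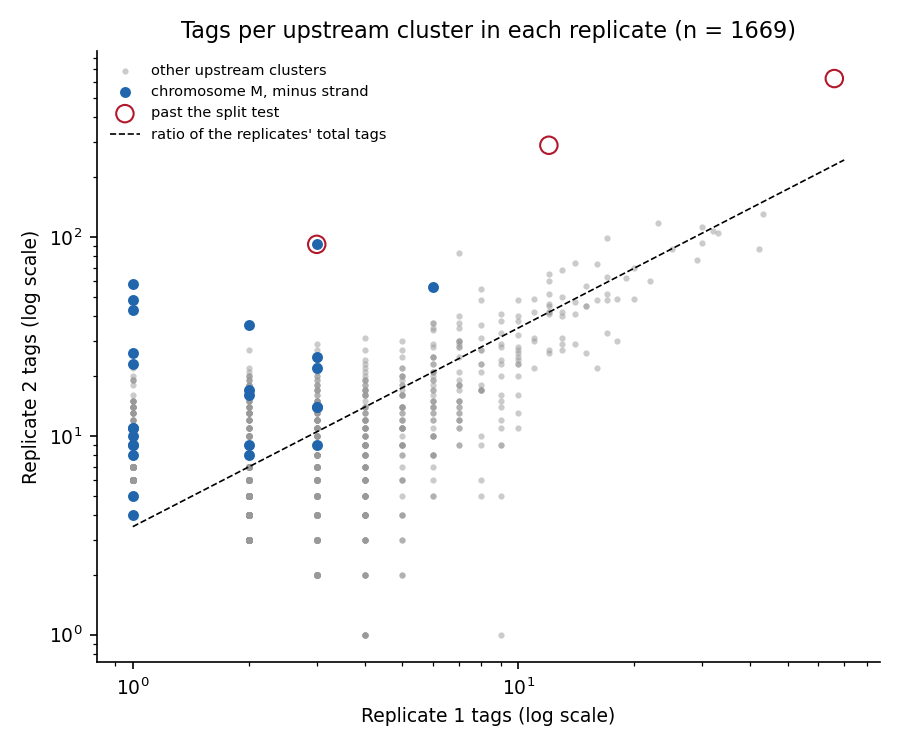
Replicate 2 tags against replicate 1 tags (both axes log scale) for the 1669 upstream clusters, with the minus strand of chromosome M in blue and the 3 clusters past the split test circled in red. The dashed line is the ratio of the replicates' total tags, 3.49, and nearly all minus-strand chromosome M clusters lie above it.

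The skew on the mitochondrial minus strand went beyond that cluster. Its 25 upstream clusters, from 10012 to 16435, held 47 tags in replicate 1 and 583 in replicate 2, a replicate 1 share of 7.46% (Wilson 95% interval 5.66 to 9.78). The share was below the overall value in 24 of the 25. The other 3 clusters on that strand had a share of 7.75% (4.26 to 13.7), whereas the 53 other clusters on the plus strand had 24.3% (23.1 to 25.5). The minus strand of this compact genome carries few genes, ND6 among them. Its upstream clusters had no gene cluster on their strand. Their position relative to ND6 was not checked, so the label need not place them 5' of that gene. On chromosome M, 26 of 82 clusters (31.7%) carried the upstream label, against 0.715% of all clusters. Without chromosome M the upstream share of tags was 0.488% and 2 upstream clusters passed the split test.

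By name, 7 of the 105 linked genes were LOC genes (6.67%, against 1.45% of all genes with a cluster), with 146 upstream clusters. Genes with RPL or RPS names numbered 3 (2.86% of linked genes, against 0.753% of all) and those with MIR names 3 (2.86% against 0.468%). Genes with SLC names numbered 2 (1.90% against 1.77%), and ZNF and C-orf genes 1 each (0.952% against 2.95% and 1.82%). The 2 with SLC names were SLC7A11 and the long noncoding RNA gene SLC7A11-AS1. No HIST or SNOR gene was linked, of 6 and 18 in the table. Added to the list after their values were seen were olfactory receptor genes, with 4 of 5 in the table linked, TAS2R genes, with 3 of 8, and LINC genes, with 4 of 41. Their shares of linked genes were 3.81% (against 0.065% of all), 2.86% (against 0.104%) and 3.81% (against 0.533%). The 4 olfactory receptor genes were all on chromosome 11, minus strand, and the 3 TAS2R genes on chromosome 7, plus strand. These counts therefore rest on few loci. These counts are descriptions and were not tested. Of 15 genes that the study followed or that were most heavily bound, SEC31A alone had a linked upstream cluster, with 2 tags in replicate 1 and 3 in replicate 2 at 8208 nt. DKK1, IL8, VEGFA, HTATIP2, HBP1, MXI1, SLK, MDM4, TNC, LIMCH1, MBNL1, RBM47, NEAT1 and MALAT1 had none. Since 1.36% of all genes with a cluster were linked, a list of this length says little either way.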

How the data were processed

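The deposited values are counts of unique tags per cluster, in a column per replicate and a total. The authors pulled down Flag-RBM47, sequenced barcoded libraries, collapsed reads and grouped overlapping tags into clusters. The submitters' processing notes name Novoalign and hg18. Coordinates are printed as deposited, and whether they count from 0 or 1 is not stated in the sources used here. In 12.3% of the upstream clusters the replicate tags exceed the total, and the total was used to rank clusters. The members, gene lists and tests were chosen with earlier results of these data known.

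Distances were measured from edge to edge to any cluster with a gene symbol. Levels are tags per 1000000 tags of the replicate in the table, as mean ± SD. The 95% intervals are by Wilson's method and reflect counting error alone. The labels do not say whether the replicates came from separate cultures. The split test (scipy 1.17.1, pandas 2.3.3) was tested on simulated data. All columns of tags were mapped. RefSeq tables of GRCh38.p14 gave names, gene order and miRNA sequences only. Sequence composition was not run. The genes named were the 10 largest clusters, the 15 genes with most upstream tags, the 5 genes with most upstream clusters, the 5 longest groups, clusters past the split test and the study's genes. C6orf62, TFAM, SLC7A11, the genes of the 17, the other unlinked groups and the GEN1 run were chosen after their values were seen. A further gene of the study's list is not reported here.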

Additional observations from a re-analysis of the deposited data

How the results depend on the processing

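Over 12 results, 108 alternatives were run. The value stayed within its tolerance in 42 and left it in 65, and in 1 the direction was reversed. The tolerance was 1 SD between replicates, a 95% interval, or 1.5 times for a count. The causes were not tested beyond what a setting changes by construction.

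With at least 10 tags per cluster the upstream share of tags was 0.433%, the median 15 tags and 115 nt, the share with a gene cluster within 10 kb 43.4%, all of them ahead (100%), the median distance 10675 nt, the log2 difference to downstream clusters -0.139, rho 0.414 and the share of the 10 largest 12.2%. With at least 30 tags the upstream share was 0.515% of clusters and 0.292% of tags, the medians 45.5 tags, 202.5 nt and 15995 nt, the linked share 26.3% with 100% ahead, the log2 difference -0.143, rho 0.494 and the share of the 10 largest 26.7%. Counting every label that includes the upstream one gave 1.69% of clusters, 1.42% of tags, 76.3% within 10 kb of which 39.05% had the gene cluster ahead, so that most had it behind, 4114 nt, -0.053, a rho of 0.416 and 12.5%. Merged clusters gave a median of 87 nt, 46.6% linked, 10563.5 nt and 17.6% in the 10 largest. Clusters whose replicates sum to the total gave 0.536% of tags, -0.104 and a rho of 0.298.

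With each replicate left out in turn, the upstream share ranged from 0.591% to 0.713% of clusters and from 0.357% to 0.479% of tags. The median ranged from 7 to 8 tags and from 92 to 142 nt, the linked share from 34.04% to 50.1%, the share ahead from 99.7% to 100%, the distance from 9809 to 13789 nt, the log2 difference from -0.114 to -0.049 and the share of the 10 largest from 11.4% to 16.04%. Replicate 1 alone moved the linked share and the distance further than replicate 2 alone. A fixed minimum is stricter in the smaller library by construction.

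Gene clusters of at least 10 tags gave 35.4% linked and 13739 nt, those outside introns 37.1% and 13259 nt, and those of either strand 54.6%, 9150 nt and 95.4% ahead. Distance between centres gave 100% ahead. A linking distance of 5 kb gave 25.8% with 100% ahead, and 20 kb gave 71.8% with 84.6% ahead. Tags per nucleotide gave a log2 difference of -0.075, and Pearson's r of log2(tags + 1) was 0.586. Chosen after the data were seen were the run gaps of 2 and 10 kb (50.8% and 73.7%), each run counted once (39.6%), the results without chromosome M (0.488% of tags) and those without the chromosome 6 group (0.452% of tags, log2 difference -0.165). The split test passed 2 to 4 upstream clusters in all its alternatives, with 3 under the beta-binomial and 3 with the median share as reference. Over all clusters, 26 passed as reported, 18 with the median share (0.00771%) and 11 under the beta-binomial (0.00471%).

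No paired analysis was possible because the design has only 1 group. The depth of replicate 1, with a median of 2 tags per upstream cluster, limits statements on single clusters.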

Other observations

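The opposite strand was also examined. An opposite-strand gene cluster lay within 10 kb behind 58 of the 1669 upstream clusters (3.48%) and within 10 kb ahead of 60 (3.60%). For deep intergenic clusters the shares were 4.46% and 4.25%, and for downstream clusters 6.76% and 10.2%. Behind the upstream clusters, 13 opposite-strand genes were found, and SMC6, which encodes a subunit of a chromosome maintenance complex, accounted for 23 of the 58 clusters. Those 23 clusters, with 94 tags in replicate 1 and 340 in replicate 2, lay within 1631 nt of a SMC6 cluster on the other strand and are among those upstream of GEN1. HSPA14, a heat shock protein 70 family gene, had 8 such clusters with 17 and 40 tags, and DPH5, an enzyme gene of diphthamide synthesis, had 7 with 14 and 40.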
